A study of Mus musculus with 9 samples.

Results

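The genes described here are 9 mouse genes of hemoglobin and of red blood cell formation: the globins Hba-a1, Hbb-b1, Hbb-bh1 and Hba-x, the heme synthesis enzyme Alas2, the membrane anion exchanger Slc4a1, the transcription factors Gata1 and Klf1, and the erythropoietin receptor Epor. They were taken by gene name from the PND3 arrays, where they are carried by 14 probes of 41174 and make up 9 of 28783 gene names. The series compared mice homozygous for the Glis3zf mutation with wild-type (WT) mice, all of the C57BL/6 strain, in RNA labelled as pancreas; Glis3 is a zinc finger transcription factor. The arrays used are those of postnatal day 3 (PND3): 1 pool held RNA of 2 Glis3zf/zf pups and the other RNA of 2 WT pups. Each of 2 Agilent 2-colour arrays compared this pair of pools, and the dyes were swapped: mutant RNA was in Cy3 on one (the mutant-in-Cy3 array) and in Cy5 on the other (the mutant-in-Cy5 array). The embryonic arrays of 3 WT and 4 mutant samples carry probe sets that were not paired with gene names here and were not analysed. The 2 PND3 arrays repeat the same pair of pools, so their agreement measures the technical error only, the spread between animals is unknown, and no p-value is given.

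Red blood cells mature in the bone marrow, spleen and, around birth, the liver. Their precursors make globin chains and heme in large amounts under the control of erythropoietin and of transcription factors such as Gata1 and Klf1. Adult hemoglobin joins alpha and beta chains, and zeta-like (Hba-x) and embryonic beta-like (Hbb-bh1, Hbb-y) chains precede them in the embryo. Young red cells still hold globin messenger RNA, so tissue that contains blood gives globin signals. In these bulk pools, fewer cells of a type and less RNA per cell cannot be told apart.

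A globin probe is a 60-base oligo, and which copy it reads depends on its letters. The pair of Hba-a1 probes overlap and are shown because they give separate readings of partly the same stretch. Capitals mark the 3 positions at which they differ in the overlap. Counted from the 5′ end of the first, these are T37C, C49T and C52T, with the first probe's base written first.
Hba-a1 probe A_52_P278538: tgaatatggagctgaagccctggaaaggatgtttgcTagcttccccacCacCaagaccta
Hba-a1 probe A_52_P208681: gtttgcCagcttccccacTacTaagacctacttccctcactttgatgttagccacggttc
Hbb-b1 has 4 probes, of which 2 are printed because they share a run of 29 bases, in capitals, and gave close mean ratios.
Hbb-b1 probe A_51_P374476: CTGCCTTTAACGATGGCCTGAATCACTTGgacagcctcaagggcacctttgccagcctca
Hbb-b1 probe A_52_P260346: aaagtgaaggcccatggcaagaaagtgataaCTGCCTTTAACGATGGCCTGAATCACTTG
The embryonic Hbb-bh1 has a pair of probes sharing 40 bases, in capitals, and Hba-x has 1.
Hbb-bh1 probe A_51_P179672: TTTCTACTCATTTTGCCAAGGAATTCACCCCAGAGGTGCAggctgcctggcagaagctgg
Hbb-bh1 probe A_52_P305876: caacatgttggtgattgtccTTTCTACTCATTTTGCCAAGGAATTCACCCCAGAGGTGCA
Hba-x probe A_51_P204053: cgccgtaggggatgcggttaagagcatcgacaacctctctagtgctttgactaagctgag
No probe filed under another gene name shared a run of 20 or more bases with a probe of the 9 genes. No probe carried the names Hba-a2 or Hbb-b2. The accession of Hba-a1 probe A_52_P278538 leads to Hba-a1 in RefSeq, whereas that of A_52_P208681 matched no RefSeq gene. Hba-a1 and Hba-a2 are near-identical copies, and the accession of the Hbb-b1 probes leads to Hbb-bt in RefSeq (GRCm38.p6), which has a near-identical neighbour, Hbb-bs. Signals filed under Hba-a1 and Hbb-b1 therefore cannot be assigned to 1 copy.

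On each array the mutant pool is read in one dye and the WT pool in the other. Scanner signals below are the software's background-subtracted, dye-normalized intensities, and a signal of one probe does not measure its amount against another probe. Ratios are log2 of mutant over WT after background correction and within-array loess normalization. A gene counted as measured when both arrays read its probe well above background in the mutant pool, the WT pool or both, and its brightest such probe stood for it. Of 20921 genes measured, 7 (0.0335%) were 2-fold or more higher and 33 (0.158%) 2-fold or more lower in the mutant pool on both arrays. By the scanner's processed ratios these counts were 22 and 154. Across genes, which do not count as replicates, the arrays' ratios had an r of 0.682, and the sign was shared for 68.7%. Kidney genes were bright and pancreas genes dim in both pools, although the label is pancreas: 8 of 10 kidney nephron genes had a signal above 1000 in both genotypes, against 0 of 8 acinar and 0 of 6 islet genes, with the level of 1000 chosen after the values were seen.

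Of the 9 genes, 7 were measured, and the embryonic globins Hbb-bh1 and Hba-x were not. None of the 7 was 2-fold apart on both arrays. Hba-a1, Hbb-b1, Alas2 and Slc4a1 had a ratio below 0 on both arrays, as did 37.8% of all genes. Gata1 and Epor had a ratio above 0 on both, as did 30.8% of all genes, and Klf1 had opposite signs. The median of the 7 ratios was -0.08, against -0.01 over all genes, and -0.27 against -0.11 with median centring. The value of -0.08 is that of Klf1, a dim gene whose sign differed between arrays, so it describes no shift shared by the 7. With 7 genes and no replicate pools, these counts are descriptions beside the background.

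**Figure D1:**
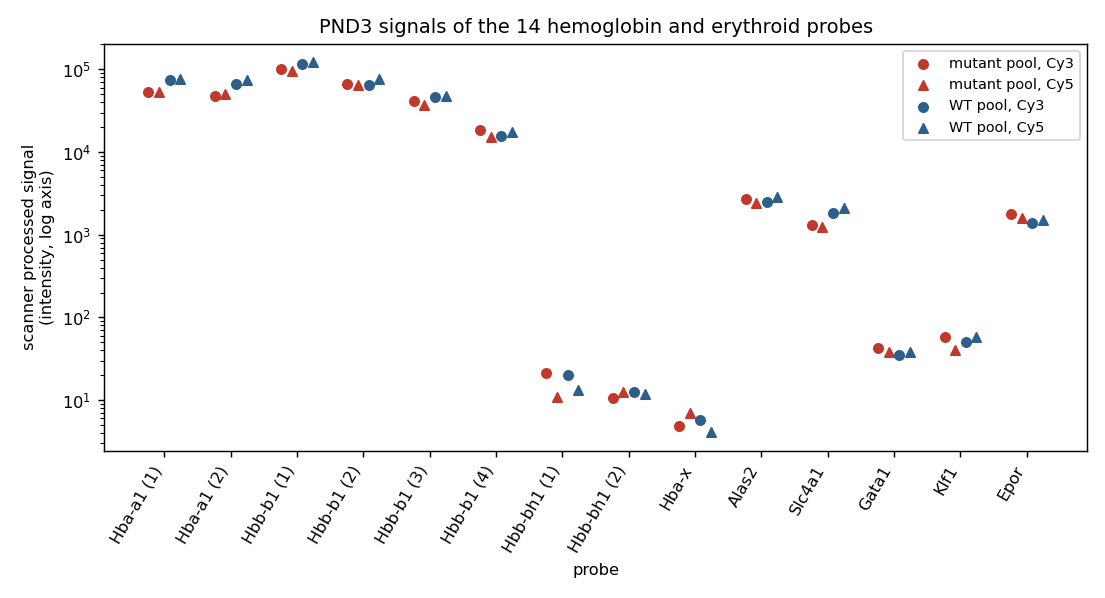
Scanner processed signal (intensity, log axis) of each of the 14 probes, with the mutant pool in red and the WT pool in blue, circles for Cy3 and triangles for Cy5; numbers in parentheses tell probes of a gene apart. The alpha globin probes lie at 47857 to 53758 in the mutant pool against 65597 to 77287 in the WT pool, whereas the Hbb-bh1 and Hba-x probes lie between 4.1 and 21.1 in both.

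Adult alpha globin was lower in the mutant pool by both probes filed under Hba-a1. For Hba-a1, the oxygen-carrying alpha chain, probe A_52_P278538 gave signals of 53269 (Cy3) and 53758 (Cy5) in the mutant pool. The WT pool gave 77287 (Cy5) and 73328 (Cy3) on the same arrays. Both mutant readings lay below both WT readings, in either dye. The log2 ratio was -0.76 on the mutant-in-Cy3 array and -0.23 on the mutant-in-Cy5 array, a mean of -0.49, or 1.41-fold lower in the mutant pool. With median centring it was -0.78. That setting also lowered other bright genes, among them Alad and Car2, and no median of bright genes is given for it. The value is therefore not read as a larger decrease. Probe A_52_P208681 gave 47857 and 50066 in the mutant pool against 73524 and 65597 in the WT pool, with ratios of -0.73 and -0.31 and a mean of -0.52. The probes that differ at T37C, C49T and C52T thus gave close means. Of all genes measured, 1.35% had a lower mean ratio than Hba-a1, and of the 1986 genes with a mean signal of 10000 or more, 0.554% did.

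Adult beta globin was lower by a smaller amount at 2 of its 4 probes, and the 4 did not give 1 value. Hbb-b1, the beta chain partner, was brightest at probe A_51_P374476, with mutant signals of 101530 (Cy3) and 96017 (Cy5) and WT signals of 120770 (Cy5) and 116592 (Cy3). Again both mutant readings lay below both WT readings. The log2 ratios were -0.52 and -0.02, a mean of -0.27, or 1.2-fold lower. With median centring the mean was -0.57, with the same limit as for Hba-a1. Probe A_52_P260346, which shares the 29 bases printed in capitals, gave -0.30 and -0.26, a mean of -0.28. The other Hbb-b1 probes lay closer to 0. Probe A_52_P213909 gave -0.41 and 0.23, a mean of -0.09, with overlapping signals in the genotypes (mutant 65073 and 67154, WT 64038 and 76631). Probe A_51_P374468 gave 0.11 and -0.10, a mean of 0.00, and its signals overlapped as well (15358 and 18239 against 15793 and 17613). Of the 4 probes, 2 were below 0 on both arrays.

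**Figure D2:**
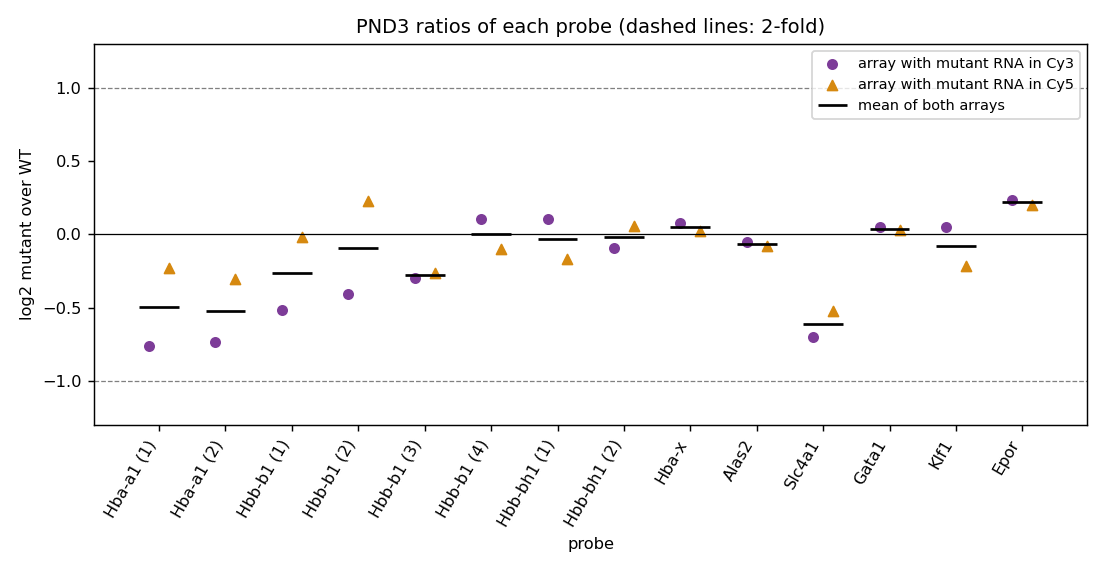
Log2 mutant over WT of each probe on the mutant-in-Cy3 array (circles) and the mutant-in-Cy5 array (triangles), with the mean of both arrays as a bar and 2-fold as dashed lines. Of the adult globin probes, the third Hbb-b1 probe (A_52_P260346) differs least between arrays, by 0.04, and the second (A_52_P213909) most, by 0.64. The first Hba-a1 probe differs by 0.53. Slc4a1, Alas2, Gata1 and Epor differ by 0.18 or less and Klf1 by 0.26.

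At the brightest probes of Hba-a1 and Hbb-b1, the size of the ratio moved with the dye. Not every globin probe did so: Hbb-b1 probe A_52_P260346 differed by 0.04 between arrays. Hbb-b1 probe A_51_P374468 moved the other way, with the higher ratio on the mutant-in-Cy3 array. Hba-a1 differed by 0.53 between arrays and Hbb-b1 by 0.50, against a median difference of 0.11 over all genes. Among the 293 genes with a signal of 50000 or more, where both lie, the median difference was 0.33 and the 95th percentile 1.05, so theirs were within the range of genes this bright. The median ratio of those 293 genes was -0.21 on the mutant-in-Cy3 array and 0.16 on the other. Of those genes, 194 were higher in Cy5 on both arrays, against 7 higher in Cy3 on both. The iron storage genes Fth1, at -0.38 and 0.19, and Ftl1, at -0.25 and 0.25, were of similar brightness and showed the dye shift with means of -0.09 and -0.00. In the mean of both arrays the median of the 293 genes was -0.02, against -0.49 for Hba-a1 and -0.27 for Hbb-b1. Whether the dye shift cancels in the mean of a single gene was not tested. The scanner software's own ratios, normalized differently, were closer together, at -0.54 and -0.45 for Hba-a1 and at -0.25 and -0.28 for Hbb-b1, with means of -0.49 and -0.27.

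**Figure D3:**
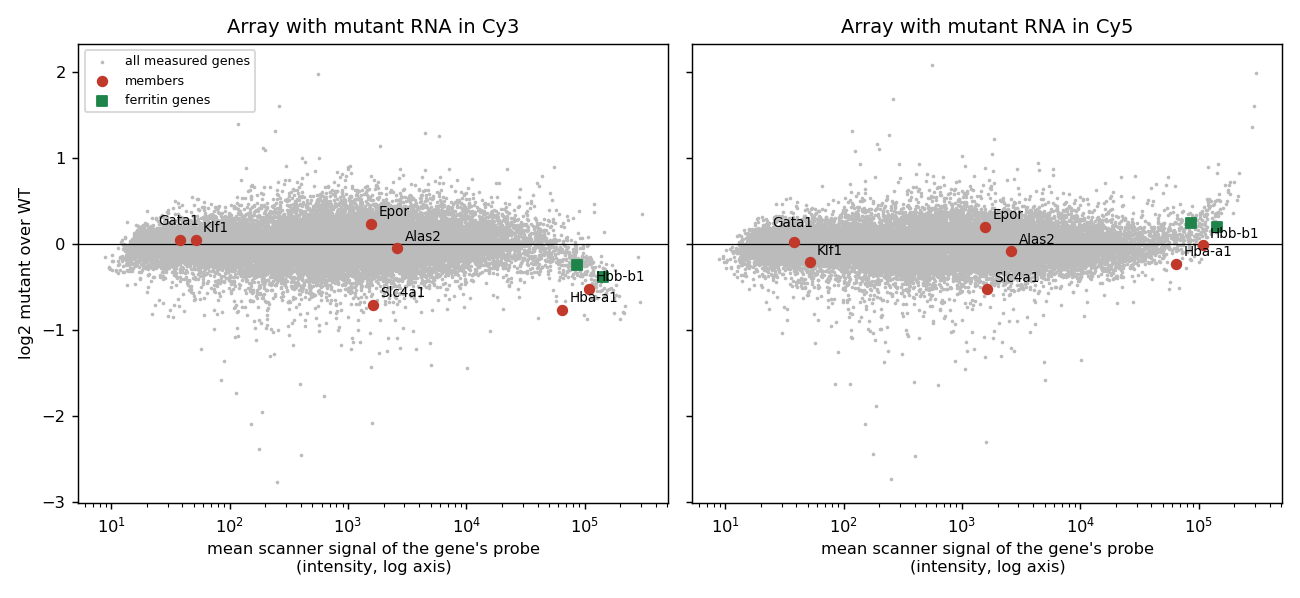
Log2 mutant over WT against the mean scanner signal (intensity, log axis) of every measured gene on each array, with the 7 measured members in red and the ferritin genes Fth1 and Ftl1 as green squares. The brightest genes bend below 0 with mutant RNA in Cy3 (median -0.21 for signals of 50000 or more) and above 0 with mutant RNA in Cy5 (median 0.16), and Hba-a1, at -0.76 and -0.23, lies below the bright genes' median on both.

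The embryonic globin Hbb-bh1 was at the edge of detection in both pools, Hba-x was not detected in either, and Hbb-y was measured. Hbb-bh1, the embryonic beta-like chain, gave 21.1 and 11.1 in the mutant pool against 13.3 and 20.4 in the WT pool at probe A_51_P179672. Each pool was well above background only when it was labelled with Cy3, so the sign of its ratio followed the dye and not the genotype. Its second probe gave 10.6 to 12.6 over all readings and passed the background flag on 1 array, for the WT pool. Hba-x, the zeta-like chain, gave 4.88 and 7.05 in the mutant pool against 4.1 and 5.79 in the WT pool, well above background on neither array in either genotype. Their ratios are plotted but read as no direction. Hbb-y, the other embryonic beta-like chain, was measured at mean signals of 98.7 and 112 in the mutant and WT pools, with ratios of -0.24 and -0.10. Ahsp, a chaperone of free alpha chains, stood at 0.08 and 0.01, a mean of 0.05 that became -0.05 with median centring. A probe described in the files only as alpha globin-like (LOC383229, chosen after its value was seen) matched probe A_52_P278538 at 45 of 55 overlapping bases and stood at -0.44 and -0.34, with mean signals of 152 and 224.

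The adult globin genes lie in separate clusters, alpha on chromosome 11 beside Hba-x and beta on chromosome 7 beside Hbb-bh1 and Hbb-y, and promoters of both adult chains are shown because both chains had mean ratios below 0, with that of Hba-x, not measured here, beside them. The 120 bases before each start site are from RefSeq (GRCm38.p6). Capitals mark matches on either strand to AGATAA or TGATAA (bound by GATA factors), CCNCNCCC (a letter pattern of KLF sites), CCAAT and TATAA.
Hba-a1 promoter, chr11:32283552-32283671, plus strand: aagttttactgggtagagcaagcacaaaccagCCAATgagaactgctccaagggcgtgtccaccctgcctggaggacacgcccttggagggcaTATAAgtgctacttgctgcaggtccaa
Hbb-bt promoter, chr7:103813924-103814043, minus strand: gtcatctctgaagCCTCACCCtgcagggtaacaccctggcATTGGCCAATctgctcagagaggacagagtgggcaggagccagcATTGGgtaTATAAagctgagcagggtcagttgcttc
Hba-x promoter, chr11:32276480-32276599, plus strand: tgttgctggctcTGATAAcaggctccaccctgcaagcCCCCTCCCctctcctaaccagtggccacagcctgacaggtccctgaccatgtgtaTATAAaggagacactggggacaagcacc
Over the full 300-base windows, from 250 bases before to 50 bases after the start, Hba-a1 and Hba-a2 were identical at all 297 overlapping bases. A GATA match was present in the windows of Hba-a1, Hba-a2, Hba-x, Hbb-bs, Hbb-y, Alas2, Klf1 and Epor and not in those of Hbb-bt or Gata1, so the near-identical beta globin genes differed in it. A CCNCNCCC match was present for Hbb-bt, Hbb-bs, Hba-x, Alas2, Gata1 and Epor and not for Hba-a1, Hba-a2, Hbb-y or Klf1. Of 32851 such windows of all genes, 18.6% hold a GATA match, 49.5% CCNCNCCC, 37.4% CCAAT and 24.9% TATAA, so a match is a description and marks no site in use. Promoter windows for Hbb-bh1 and Slc4a1 were not used here.

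Heme synthesis genes had ratios close to 0. Alas2, the erythroid enzyme of the first and rate-limiting step, gave 2665 (Cy3) and 2433 (Cy5) in the mutant pool against 2836 (Cy5) and 2509 (Cy3) in the WT pool, and these readings overlap between genotypes. Its ratios were -0.05 and -0.08, a mean of -0.07, with 34.5% of all genes lower, and -0.27 with median centring. Of 13 listed heme synthesis genes, all 13 were measured, 6 were below 0 on both arrays and 4 above, none 2-fold, and the median was -0.02. Cpox, the coproporphyrinogen oxidase, was lowest at -0.17, and Slc25a38, the mitochondrial glycine carrier of the erythroid path, was highest at 0.23. Fech, the last enzyme, which inserts the iron, stood at -0.04. Alas1, the housekeeping counterpart of Alas2, stood at 0.11 and Alad, the enzyme after it, at 0.10, and both were below 0 with median centring, at -0.12 and -0.14.

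Slc4a1 had the lowest mean ratio of the 7 measured genes. It encodes band 3, the chloride-bicarbonate exchanger of the red cell membrane, and a shorter form serves the basolateral membrane of acid-secreting intercalated cells of the kidney collecting duct. The mutant pool gave 1297 (Cy3) and 1234 (Cy5), and the WT pool gave 2089 (Cy5) and 1854 (Cy3). Both WT readings lay above both mutant readings. The ratios were -0.70 and -0.52, a mean of -0.61, or 1.53-fold lower in the mutant pool, and 0.707% of all genes had a lower mean ratio. On the mutant-in-Cy3 array alone, Hba-a1 (-0.76) was lower still. The single Slc4a1 probe was not placed here against the red cell and kidney forms.

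Other red cell membrane genes had ratios on both sides of 0. Of 18 listed, Slc4a1 included, 13 were measured, 8 were below 0 on both arrays, 2 were above and none was 2-fold apart, with a median of -0.09. Epb42, whose protein binds band 3, gave mean signals of 36.0 and 66.3 in the mutant and WT pools and stood at -0.39 and -0.36. Kel, the Kell blood group protein (named after its value was seen), stood at -0.30. Ank1, the ankyrin that ties band 3 to the membrane skeleton, stood at -0.19. The listed genes Sptb, Tmod1, Rhd and Icam4, also named after their values were seen, stood at 0.07, 0.01, -0.03 and -0.03. Dmtn, the actin-bundling dematin that many tissues express, was highest at 0.34. By the scanner's own ratios, which lack the offset that draws dim ratios toward 0, Epb42 stood at a mean of -0.88. On that scale Kel stood at -0.50, Ank1 at -0.26, Sptb at 0.17 and Dmtn at 0.34. The defining red cell gene Rhag, the Rh-associated glycoprotein, was not measured, with mean signals of 5.63 in the mutant pool against 5.29 in the WT pool.

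Intercalated cell genes went both ways beside Slc4a1. All 10 listed were measured, 6 were below 0 on both arrays and 3 above, with a median of -0.18. The 2 that were 2-fold lower on both arrays were Slc26a4, the pendrin exchanger of base-secreting intercalated cells, at -1.26, and Rhbg, an ammonia transporter, at -1.12. Atp6v1g3, a proton pump subunit of these cells, stood at -0.58. Atp6v0d2, Aqp6 and Slc4a9 stood at -0.32, -0.25 and -0.11, and these 4 were named after their values were seen. Atp6v1b1, another subunit of that pump, was highest at 0.19, and Foxi1, the transcription factor that specifies these cells, stood at 0.09, or at -0.00 with median centring. The summed signal of the 10 genes was 39203 to 43653 in the mutant pool against 45837 to 50358 in the WT pool. The largest differences in it were those of Slc26a4 (mean signals 2861 in the mutant and 6975 in the WT pool) and Rhbg (2327 and 5148). The brightest genes, Rhcg (15416 and 13690) and Car2 (14837 and 14825), were not lower in the mutant pool. The sum therefore describes no level shared by the 10 genes. The part of either cell type in the Slc4a1 ratio was not tested.

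**Figure D4:**
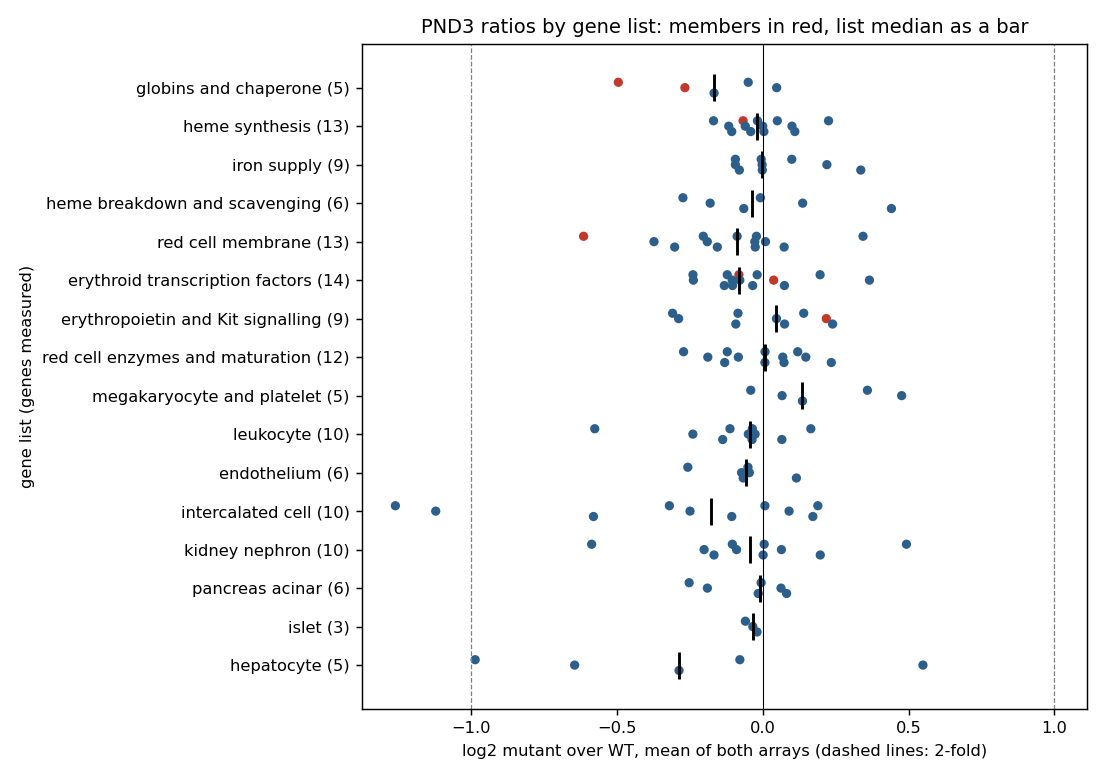
Mean log2 mutant over WT of each measured gene by list, with the 9 chosen genes in red where measured, the others in blue, the list median as a bar and 2-fold as dashed lines. In this setting, which draws dim ratios toward 0, erythroid genes apart from Hba-a1 and Slc4a1 lie between -0.37 and 0.44. The dim Epb42 stood at -0.88 by the scanner's ratios. The 2 points below -1 belong to the intercalated cell list.

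The master transcription factors Gata1 and Klf1 were dim, with ratios near 0. Gata1, which drives globin, heme and membrane genes of red cell precursors, has 10 spots on each array. Its mean signals were 42.8 (Cy3) and 37.8 (Cy5) in the mutant pool against 37.8 (Cy5) and 35 (Cy3) in the WT pool. Over the 10 spots the ratio was 0.05 ± 0.065 (SD of 10 spots) on the mutant-in-Cy3 array and 0.03 ± 0.056 on the other, with 3 of 10 spots below 0 on each. The spots share the same pools, so their spread is technical. By the scanner's own ratios, which lack the offset that draws dim ratios toward 0, Gata1 stood at 0.19 and 0.12. Klf1, the factor of the adult beta globin promoter, gave 57.8 and 40.7 in the mutant pool against 57.7 and 50.4 in the WT pool, with ratios of 0.05 and -0.21. Its sign differed between arrays, and its mean of -0.08 is no direction.

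Of 14 listed erythroid transcription factors, all were measured, 7 were below 0 on both arrays, 4 above and none 2-fold apart, with a median of -0.08. Lmo2, a bridging partner of Tal1, was lowest at -0.24, and Ldb1, the widely expressed cofactor of the same complex, was highest at 0.37. Tal1 stood at 0.11 and -0.32 on the separate arrays and Nfe2, a globin locus activator, at 0.02 and -0.05. Gfi1b, a repressor in red cell precursors, stood at -0.08, and Zfpm1, the Gata1 partner also known as Fog1, at -0.13.

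The erythropoietin receptor was the highest of the 7 measured genes. Epor, through which erythropoietin keeps red cell precursors alive, gave 1798 (Cy3) and 1611 (Cy5) in the mutant pool against 1498 (Cy5) and 1380 (Cy3) in the WT pool. Both mutant readings lay above both WT readings. The ratios were 0.24 and 0.20, a mean of 0.22, or 1.16-fold higher in the mutant pool, and 90.9% of all genes had a lower mean ratio. With median centring it stood at 0.04, where the median of all genes was -0.11. Its hormone, Epo, made by kidney interstitial cells after birth, was not measured, with mean signals of 13.9 and 10.4 and no reading well above background. Of 10 listed genes of erythropoietin and Kit signalling, 9 were measured, 4 below 0 on both arrays and 4 above, none 2-fold. Kit, the stem cell factor receptor, was lowest at -0.31, Jak2, the kinase bound to Epor, stood at -0.29, and Bcl2l1, a survival factor downstream of Epor, was highest at 0.24.

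Iron, heme breakdown and maturation genes were not 2-fold apart on both arrays in any case. Tfrc, the transferrin receptor that takes up iron, stood at 0.22, and Slc25a37, the mitochondrial iron importer mitoferrin, was the highest of 9 measured iron genes at 0.34; Fth1 was lowest at -0.09. Among 6 heme breakdown and scavenging genes, Hmox1, the heme oxygenase, was highest at 0.44, with 0.40 and 0.49 on the arrays and mean signals of 8741 and 6416 in the mutant and WT pools. Blvrb, a biliverdin reductase, was lowest at -0.27. Of 14 red cell enzyme and maturation genes, 12 were measured, 5 below 0 on both arrays and 3 above, with Cat, the catalase, lowest at -0.27. The carbonic anhydrases Car1 and Car2 both stood at 0.01, or at -0.03 and -0.24 with median centring, and Hemgn, a red cell precursor gene, was not measured. Over the 8 erythroid lists without the 9 genes, 84 genes were listed and 74 measured, 33 below 0 on both arrays, 21 above and 0 at 2-fold, with a median of -0.03.

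Markers of other blood and vessel cells were read beside the globins. Of 5 measured platelet genes, 3 were above 0 on both arrays and none below, with Ppbp, a platelet chemokine, at 0.48 and Itga2b, the platelet integrin, at 0.36. The summed signal of the platelet list, in which Gp1ba was not measured, was 4149 to 4680 in the mutant pool against 3826 to 4437 in the WT pool. That sum is mostly Pf4, a platelet chemokine named after its value was seen. Its mean signals were 4023 and 3852 in the mutant and WT pools, and its ratios of -0.03 and 0.16 had opposite signs. Of 10 measured leukocyte genes, 6 were below 0 on both arrays and 2 above, with Tyrobp, an immune receptor adaptor, lowest at -0.58 and Csf1r, the macrophage receptor, at 0.16, or at -0.02 with median centring. The leukocyte sum was 6547 to 7109 in the mutant pool against 7224 to 8076 in the WT pool. Endothelial genes had a median of -0.06 over 6 genes and sums of 30061 to 31452 and 30674 to 34811. Hepatocyte genes, listed because the newborn liver makes red cells, had a median of -0.29 over 5 measured. Ttr, the transthyretin, was lowest at -0.99. Alb, albumin, was highest at 0.55, or 1.21 by the scanner's ratios, with mean signals of 91.4 and 40.4 in the mutant and WT pools. The hepatocyte sum of 23161 to 25519 in the mutant pool against 36420 to 38064 in the WT pool is mostly Afp, the fetal alpha-fetoprotein (mean signals 21633 and 33822, ratio -0.64, named after its value was seen). The part of blood content or of these cells in the globin ratios was not tested.

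**Figure D5:**
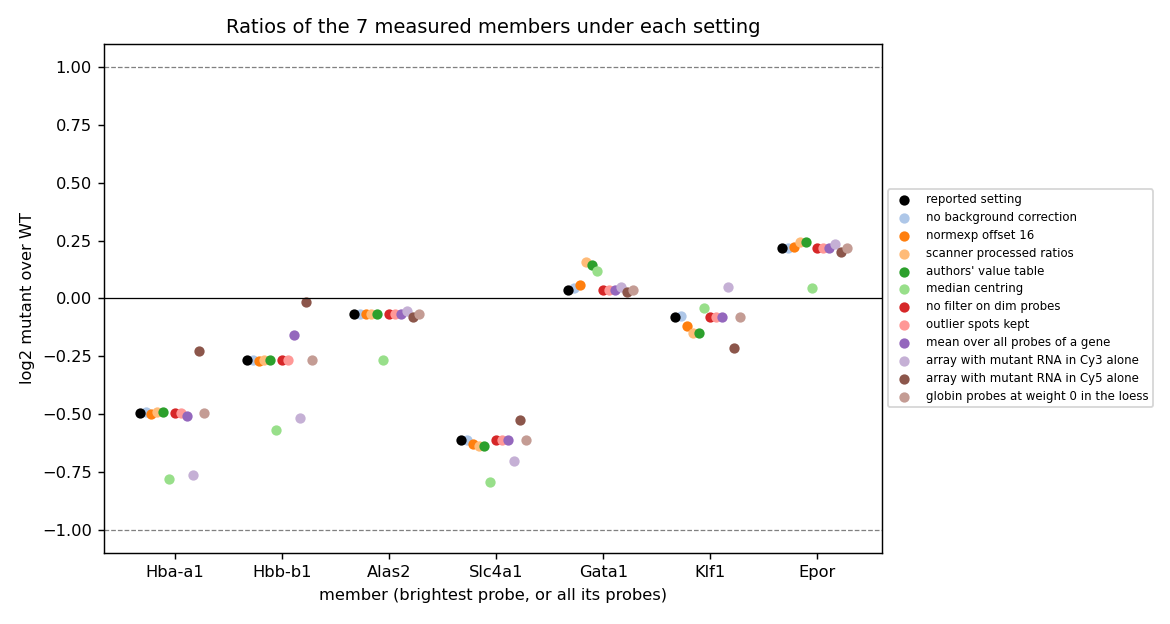
Log2 mutant over WT of the 7 measured genes under the reported setting (black) and each alternative (colours), with 2-fold as dashed lines. No value reaches 2-fold; Hba-a1 ranges from -0.78 to -0.23 and Slc4a1 from -0.80 to -0.52, and Klf1 alone takes both signs.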

How the data were processed

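The PND3 arrays held amplified RNA from 500 ng per pool, labelled with Cy3 or Cy5, per the labels. Deposited scanner files hold spot and background intensities and, per the file headers, processed signals, a log10 ratio of Cy5 over Cy3, and other columns of flags and spot types. The deposited value table holds log2 ratios of mutant over WT, as its match to the scanner ratio shows (r = 0.9996 and 0.9997, medians 0). Agilent Feature Extraction is version 8.1 in the submitters' processing notes and 9.1.3.1 in the file headers.

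In limma 3.58.1 (R 4.3.3), background was corrected by normexp (offset 50, which draws dim ratios toward 0) and ratios by within-array loess (controls weighted 0). Outlier spots (18 and 26 of 43379 non-control spots) were left out, and 0 spots were saturated. Ratios of the mutant-in-Cy3 array were turned to mutant over WT. Both arrays share 1 slide. The method was tested on simulated data with a constant dye shift, read at spots above a brightness cutoff. That test covers neither the dye shift of the brightest genes nor the dim spots. Names came from RefSeq (GRCm38.p6) for 22951 probes and otherwise from the files.

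Named genes were the 9 members, a fixed set from the lists and each list's lowest and highest gene, and any other named gene was chosen after its value was seen. Some genes under this rule are not reported here. Members and lists were chosen with earlier results of these data known. Alternatives changed background correction, normalization, filter, probe rule and array.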

Additional observations from a re-analysis of the deposited data

How the results depend on the processing

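Of the 9 genes, 0 were 2-fold apart under every alternative run, and so were 0 of the other erythroid list genes. The 4 genes below 0 on both arrays were 4 under every alternative that used both arrays, and 5 by the mutant-in-Cy5 array alone. The count of all genes 2-fold apart was 70 with a normexp offset of 16, 176 by the scanner's processed ratios and 176 by the value table, against 40. The median of the members was -0.12 with that offset, -0.15 with the scanner's ratios, -0.15 with the value table, -0.27 with median centring, where the median of all genes was -0.11, and -0.052 by the mutant-in-Cy3 array alone, against -0.08. In the reported setting and by the scanner's ratios, the members' median is the value of the dim Klf1. Hbb-b1 was -0.16 as the mean of its probes. The cause was not tested. Globin probes at weight 0 in the loess, chosen after seeing the data, left Hba-a1 at -0.50. No paired analysis was possible because the PND3 comparison holds 1 pool per genotype and comes from no test, and alternatives for the embryonic arrays were not run, since their probe sets have no gene names here. One pool per genotype and dim probes of Gata1, Klf1, Hbb-bh1 and Hba-x limit what can be read.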
